A study of Mus musculus with 45 samples.

Results

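The frontonasal process at embryonic day E12.5 was compared between its 2 tissue layers, the surface ectoderm and the underlying mesenchyme. The groups were taken from the array titles: 3 arrays of fronto-nasal process ectoderm and 3 of fronto-nasal process mesenchyme, 6 of the 45 arrays in the series. All embryos were inbred wild-type C57BL6/J mice, and each array holds RNA pooled from several embryos whose number is not given in the sources used here. The layers were peeled apart after 15 min in Dispase II at 37 °C, and the labels give no sorting step. For reference, the same layers were used from the frontonasal process at E11.5 (6 arrays) and from the maxillary and mandibular prominences, the jaw prominences, at E12.5 (12 arrays), all from the same strain and separated in the same way. Of the 28944 probe sets with a value, the 14472 with the larger variance over the series were tested, and 9271 of these carry a gene symbol.

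The frontonasal process forms the forehead, the nose and the middle of the upper lip. Its ectoderm is a thin epithelium of basal cells under a flat periderm, from which whisker placodes arise, and the nasal placodes within it fold inwards to form the nasal pits and the olfactory epithelium. Its mesenchyme comes mostly from the cranial neural crest and holds the vessels. The ectoderm is known as a source of Wnt, Fgf, Shh and Pdgf ligands, and the neural crest cells beneath it carry many of the receptors and build the cartilage, bone and dermis of the midface.

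Values are log2 signals from Affymetrix Mouse Gene 1.0 ST arrays, so a difference of 1 is a 2-fold difference, and the number of arrays limits the precision. The 6 arrays detected between 22756 and 25362 probe sets (78.6% to 87.6%) at a detection p under 0.05, and their medians lay between 6.04 and 6.22. Ectoderm replicate 3 stood apart from the other ectoderm arrays. Its median correlation with its own group was 0.9804, against 0.9889 and 0.9885 for ectoderm replicates 1 and 2 and at least 0.9955 for the mesenchyme arrays. On it 793 probe sets lay more than 1 log2 unit from the mean of replicates 1 and 2, while 16 probe sets separated replicates 1 and 2 by that much. The 18 immediate-early and heat-shock genes, which are switched on within minutes of stress or handling, averaged 6.92, 6.90 and 8.08 on ectoderm replicates 1 to 3, and 6.80, 7.71 and 6.93 on the mesenchyme replicates. In that list the heat-shock gene Hspa1a read 8.49, 8.12 and 11.83 on the ectoderm arrays and 6.41, 10.05 and 7.04 on the mesenchyme arrays. The third ectoderm array was also the highest of its group in this list in the maxillary (8.14) and mandibular (8.18) prominences at E12.5. Counts are therefore given with and without ectoderm replicate 3. The median replicate SD was 0.258 in the ectoderm and 0.118 in the mesenchyme.

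The comparison asked which genes differed between the layers. Ectoderm exceeded mesenchyme for 3544 probe sets (24.5% of those tested) and was below it for 3414 (23.6%) at a limma adjusted p under 0.05, with a median difference of 0.07 over all tested. A difference of at least 2-fold was called for 521 probe sets (3.6%) in the ectoderm and 993 (6.86%) in the mesenchyme. Without ectoderm replicate 3 the counts were 2862 and 3051, and 578 and 1018 at 2-fold. With only the 2 compared groups in the fit, 1624 probe sets were higher and 2217 lower. The reported fit shares its spread over all 15 groups, which may understate that of the ectoderm. Per gene symbol, 27.2% of 8589 were higher and 30.8% lower, with a median of 0.02, and the gene lists below are read beside these shares. Each value after ± is a standard error of the fit unless an SD is named. RNA from whole tissue was measured, so fewer cells of a type and less RNA per cell cannot be told apart.

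The genes with the largest excess in the ectoderm included 2 connexins, a Wnt ligand and a basal keratin. Gabrp, a subunit of the GABA-A receptor, averaged 10.67 ± 0.15 (SD, n = 3) on the ectoderm arrays, with replicate 3 the lowest, and read 5.72, 5.54 and 5.48 on the mesenchyme arrays. It was 34.1-fold higher in the ectoderm, with about 5 log2 units of separation and no overlap (log2 difference 5.09 ± 0.21, adjusted p = 2.41e-20). The connexins Gjb6 and Gjb2, which form gap junctions between epithelial cells, followed. Gjb6 read 9.44, 9.41 and 8.64 on the ectoderm arrays and 4.86, 4.93 and 4.68 on the mesenchyme arrays. Gjb2 read 10.39, 10.54 and 9.97 on the ectoderm arrays and 6.19, 6.07 and 5.97 on the mesenchyme arrays. Ectoderm replicate 3 was the lowest ectoderm array for both, and it stayed far above every mesenchyme array. The differences were 20.3-fold (log2 difference 4.34 ± 0.22, adjusted p = 2.69e-18) and 18.7-fold (log2 difference 4.22 ± 0.26, adjusted p = 5.18e-16). Wnt7b, a secreted Wnt ligand, read 10.47, 10.34 and 10.07 on the ectoderm arrays and 6.37, 6.67 and 6.48 on the mesenchyme arrays. Every ectoderm array lay above every mesenchyme array, by 13.8-fold (log2 difference 3.79 ± 0.16, adjusted p = 4.84e-20).

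Other genes with the largest excess in the ectoderm were of several kinds. Slc2a3, a glucose transporter, and Slc7a11, the cystine carrier of the cystine-glutamate exchanger, differed by 3.82 ± 0.17 and 3.34 ± 0.16 log2 units. The homeobox gene Irx4 differed by 3.70 ± 0.16, and the basal keratin gene Krt14 by 3.34 ± 0.32. Insyn2b and Plbd1 differed by 3.39 ± 0.17 and 3.34 ± 0.15. Dct, an enzyme of melanin synthesis, differed by 3.66 ± 0.17. For the 11 genes drawn, the lowest ectoderm array was above the highest mesenchyme array, as the plot of the largest differences by array shows.

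**Figure D1:**
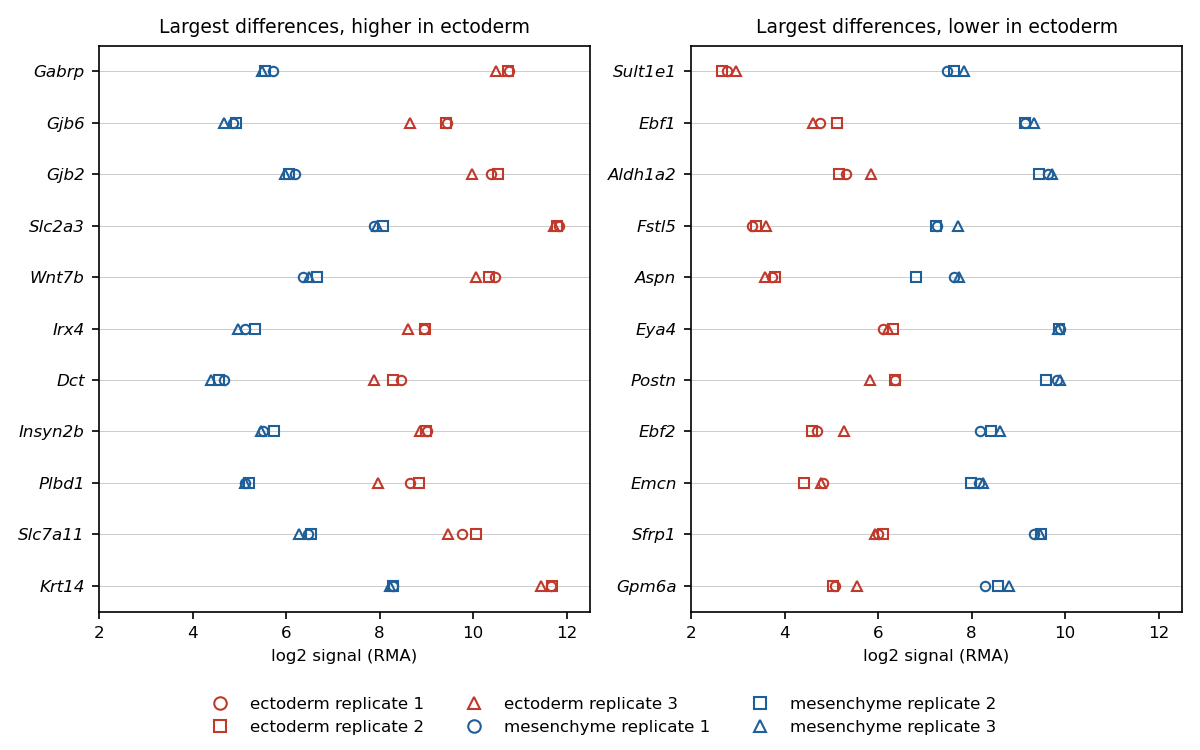
Log2 signal (x axis) of 11 genes with the largest differences in each direction, 1 gene per row, with a circle, square or triangle for replicates 1, 2 and 3 of the ectoderm (red) and mesenchyme (blue). In all 22 rows the layers are separate, and ectoderm replicate 3 (red triangle) often lies nearest to the mesenchyme arrays.

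The epithelial identity was checked against a list of adhesion, junction and epithelial regulator genes. Of 46 tested, 40 (87%) were higher in the ectoderm, 1 was lower and 5 passed in neither direction, with a median difference of 1.62. The counts were again 40 and 1 without ectoderm replicate 3. Perp, a desmosome protein gene, differed by 3.15 ± 0.26 and Col17a1, the collagen of the hemidesmosome, by 3.11 ± 0.15. Dsp, which links desmosomes to keratin, read 11.34, 11.42 and 11.08 on the ectoderm arrays and 8.60, 8.60 and 8.73 on the mesenchyme arrays. Cdh1, the gene of E-cadherin, differed by 2.03 ± 0.23, and the grainyhead factor Grhl3, which acts in epidermal differentiation, by 2.28 ± 0.21. Ehf, an Ets factor, was the member that was lower, at -0.92 ± 0.18. Cldn3, Cldn7, Prss8, Elf3 and Tjp3 made no call, with differences between -0.13 and 0.35, and Prss8 passed at 0.64 (adjusted p = 0.00112) without ectoderm replicate 3. Cldn3 passed at 0.47 (adjusted p = 0.0201) without ectoderm replicate 2. The 46 genes averaged 8.67, 8.67 and 8.38 on the ectoderm arrays and between 6.92 and 7.09 on the mesenchyme arrays, and all 46 were detected on every mesenchyme array.

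Upstream sequence is shown for 4 of these genes, because a short motif was frequent in the list. Snai1, Zeb1 and Zeb2 encode repressors known to bind the E2-box CACCTG in epithelial promoters, and all 3 were lower in the ectoderm, at -1.71, -2.34 and -2.14. Snai2, another SNAI factor, made no call, and was at 0.09 without ectoderm replicate 3 (adjusted p = 0.594). The E2-box was searched on both strands in the 250 bases before the gene start, in RefSeq promoters of build GRCm38.p6, where 23 of the 46 genes matched with 30 promoters. It was found in 16 of the 30 (53.3%), in 14 genes, against 5657 of 32851 promoters in the whole table (17.2%) and 2 of 29 (6.9%) in the cranial mesenchyme list. Of these 14 genes Cldn7, Elf3 and Tjp3 made no call between the layers, and the others were higher in the ectoderm. Whether the motif goes with the layer difference was not tested. The GRHL motif AACCNGTT was found in 2 of the 30 (6.67%, Gjb6 and Rab25) against 1.79% of all, and the AP-2 motif GCCNNNGGC in 7 (23.3%) against 13.7% of all and 9 of 29 (31%) in the mesenchyme list. The homeodomain motif TAATTA was found in 0 of the 30, against 4.84% of all and in 1 of 29 (3.45%, Prrx1) for the mesenchyme list. Matches of a motif are letters in a window and were not tested as binding sites. In the following 4 sequences, written 5′ to 3′ on the strand of the gene and ending at the base before the start, capitals mark the E2-box or its reverse complement CAGGTG.
Gjb2 (chr14:57104703-57104952, - strand): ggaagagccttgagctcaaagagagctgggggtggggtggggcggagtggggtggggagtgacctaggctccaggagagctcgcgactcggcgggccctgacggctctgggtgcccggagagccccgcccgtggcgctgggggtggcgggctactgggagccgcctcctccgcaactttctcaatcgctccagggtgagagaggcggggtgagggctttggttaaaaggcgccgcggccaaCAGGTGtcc
Grhl3 (chr4:135573633-135573882, - strand): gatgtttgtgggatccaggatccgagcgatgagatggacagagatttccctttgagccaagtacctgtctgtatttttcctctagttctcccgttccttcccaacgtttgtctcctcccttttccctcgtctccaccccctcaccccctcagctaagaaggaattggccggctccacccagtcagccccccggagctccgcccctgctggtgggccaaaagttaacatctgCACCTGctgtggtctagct
Epcam (chr17:87635729-87635978, + strand): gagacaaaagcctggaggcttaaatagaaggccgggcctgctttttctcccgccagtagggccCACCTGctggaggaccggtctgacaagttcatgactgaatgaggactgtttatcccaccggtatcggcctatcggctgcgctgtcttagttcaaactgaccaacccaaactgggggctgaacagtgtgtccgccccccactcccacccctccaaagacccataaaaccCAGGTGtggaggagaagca
Ap1m2 (chr9:21312334-21312583, - strand): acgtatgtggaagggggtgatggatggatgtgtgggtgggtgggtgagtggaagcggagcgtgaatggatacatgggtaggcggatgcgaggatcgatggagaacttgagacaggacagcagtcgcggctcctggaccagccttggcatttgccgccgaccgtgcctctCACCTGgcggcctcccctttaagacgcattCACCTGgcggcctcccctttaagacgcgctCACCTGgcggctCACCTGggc
Gjb2 and Grhl3 hold 1 match each, close to the start. Epcam holds 2, and Ap1m2, an adaptor subunit for sorting in epithelial cells, holds 4. Of these genes Gjb2 differed 18.7-fold, Grhl3 4.87-fold, Ap1m2 2.47-fold and Epcam 1.71-fold between the layers.

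Epidermal genes were higher in the ectoderm with an exception in the simple keratins. Of 26 genes of basal epidermis and periderm, 22 (84.6%) were higher and 2 lower, with a median of 2.09, and without ectoderm replicate 3 the counts were 19 and 2. Trp63, the p53 relative that specifies stratified epithelium, read 10.43, 10.49 and 10.33 on the ectoderm arrays and 7.44, 7.71 and 7.46 on the mesenchyme arrays. The groups were separate (log2 difference 2.88 ± 0.19, adjusted p = 2.32e-15). The basal keratins Krt5, Krt14 and Krt15 differed by 2.78 ± 0.31, 3.34 ± 0.32 and 2.89 ± 0.19, and Krt7 by 3.02 ± 0.13. Trim29 and the tight junction gene Cldn1 differed by 2.79 ± 0.19 and 2.66 ± 0.23. The lower genes were Krt8 and Krt18, partners in the filaments of simple epithelia and of the periderm. Krt8 read 8.56, 8.45 and 8.66 on the ectoderm arrays and 9.55, 9.66 and 9.58 on the mesenchyme arrays. Every mesenchyme array was higher than every ectoderm array (log2 difference -1.04 ± 0.12, adjusted p = 1.54e-09). Krt18 read 8.41, 8.37 and 7.96 on the ectoderm arrays and 9.02, 9.0 and 9.20 on the mesenchyme arrays, again with no overlap (log2 difference -0.83 ± 0.18, adjusted p = 0.000281).

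Genes of the whisker placodes, the first thickenings of the hair and vibrissa follicles, were mostly higher in the ectoderm, with 11 of 18 higher and 3 lower, and 12 and 3 without ectoderm replicate 3. Sostdc1, a secreted inhibitor of Wnt and Bmp signals, read 11.17, 11.24 and 11.02 on the ectoderm arrays and 8.42, 8.33 and 8.71 on the mesenchyme arrays. The layers were separate on every array (log2 difference 2.66 ± 0.16, adjusted p = 1.14e-16). Dkk4, a Wnt inhibitor of early placodes, differed by 2.04 ± 0.16, and Edar and its adaptor Edaradd, which receive the ectodysplasin signal, by 1.65 ± 0.15 and 1.76 ± 0.11. The ligand gene Eda was at -0.05 ± 0.12 with no call. The 3 lower genes were Prdm1 at -1.05 ± 0.16, Trps1 at -0.38 ± 0.15 and Sox21 at -0.37 ± 0.10. The call of Trps1 was lost when any of the 6 arrays other than ectoderm replicate 3 was left out (adjusted p from 0.0514 to 0.0875).

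Of 22 ligand genes 14 (63.6%) were higher in the ectoderm and 2 lower, with a median of 1.02, and without ectoderm replicate 3 the counts were 14 and 3. All 7 Wnt genes of the list were higher. Wnt3 read 8.54, 8.39 and 8.17 on the ectoderm arrays and 5.02, 5.51 and 4.69 on the mesenchyme arrays, which placed every ectoderm array above the mesenchyme (log2 difference 3.29 ± 0.19, adjusted p = 5.06e-17). Wnt6, Wnt9b, Wnt10b and Wnt4 differed by 2.87 ± 0.16, 2.52 ± 0.23, 2.24 ± 0.16 and 1.93 ± 0.12. The Notch ligand Jag2 differed by 1.85 ± 0.14, and Shh by 1.37 ± 0.17. Fgf ligands gave smaller values: Fgf8 was at 0.35 ± 0.15 (adjusted p = 0.0494), and without ectoderm replicate 3 at 0.11 (adjusted p = 0.588). Fgf9, Fgf17, Fgf18 and Fgf20 made no call, though Fgf18 passed at -0.41 (adjusted p = 0.0323) without ectoderm replicate 3, and Fgf15 was lower at -0.61 ± 0.14. Bmp4 read 7.91, 7.83 and 7.73 on the ectoderm arrays and 8.94, 8.88 and 9.01 on the mesenchyme arrays. Among the 22 ligands it had the largest excess in the mesenchyme (log2 difference -1.12 ± 0.13, adjusted p = 4.2e-09), while Bmp7 was higher in the ectoderm at 0.61 ± 0.10.

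Several receptors lay opposite to their ligands. Pdgfa, a ligand of the PDGF receptor alpha, read 10.20, 10.14 and 10.24 on the ectoderm arrays and 7.97, 8.29 and 8.18 on the mesenchyme arrays. Its receptor gene Pdgfra read 8.09, 7.74 and 8.82 on the ectoderm arrays and 11.26, 11.21 and 11.28 on the mesenchyme arrays. The ligand was 4.13-fold higher in the ectoderm (log2 difference 2.05 ± 0.17, adjusted p = 2.11e-12) and the receptor 8.19-fold lower (log2 difference -3.03 ± 0.31, adjusted p = 2.94e-10), and neither pair of groups overlapped. Pdgfc, also a ligand of that receptor, differed by 1.55 ± 0.10 and Pdgfrb by -2.93 ± 0.27. Edn1, the endothelin that acts on the neural crest, differed by 0.67 ± 0.17, and its receptor gene Ednra read 7.23, 7.31 and 8.05 on the ectoderm arrays and averaged 10.07 ± 0.08 (SD, n = 3) on the mesenchyme arrays (log2 difference -2.54 ± 0.30, adjusted p = 5.19e-09). Fgfr2 was higher in the ectoderm at 1.49 ± 0.09, and Fgfr1 lower at -1.50 ± 0.13.

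Over the 36 receptors and response genes, 9 (25%) were higher in the ectoderm and 17 (47.2%) lower, with a median of -0.32, and 10 and 17 without ectoderm replicate 3. Among hedgehog response genes Ptch1 (0.09 ± 0.12) and Gli1 (-0.01 ± 0.12) made no call, and Hhip was lower at -0.43 ± 0.14. Without ectoderm replicate 3, Ptch1 passed at 0.28 (adjusted p = 0.0342). Among this list's inhibitors of Wnt signalling, the ectoderm was lower for Sfrp1 (-3.42 ± 0.12), Dkk2 (-1.74 ± 0.23), Sfrp2 (-1.57 ± 0.13) and Dkk1 (-1.52 ± 0.18), and higher for Notum (1.11 ± 0.10), which removes the lipid from Wnt proteins. The inhibitors Dkk4 and Sostdc1 of the whisker placode list were also higher in the ectoderm. The Wnt response genes Axin2 (0.06 ± 0.12) and Lef1 (0.22 ± 0.11) made no call. Among the Ets factors of this list, Etv1 was lower at -2.29 ± 0.12, and Etv4 and Etv5 were at 0.07 ± 0.11 and 0.19 ± 0.09 with no call. The plot of ligands and receptors gives the values gene by gene.

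**Figure D2:**
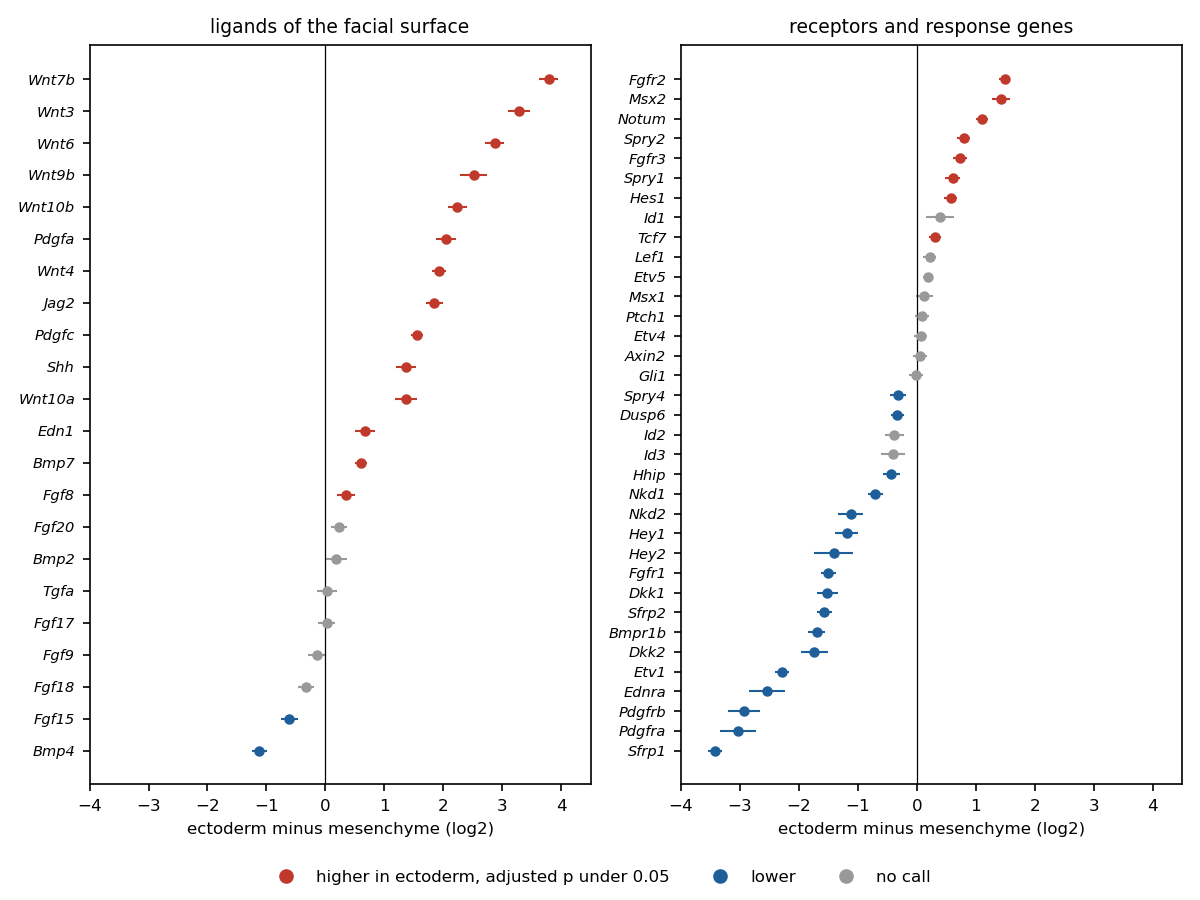
Ectoderm minus mesenchyme at E12.5 (x axis, log2) for the 22 ligand genes (left) and 35 receptor and response genes (right), with the standard error of the fit as bars. Red marks genes called higher in the ectoderm (14 ligands, 8 receptor and response genes), blue genes called lower (2 and 17) and grey genes with no call.

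The mesenchyme held the regulators of cranial mesenchyme. Of 34 genes, 28 (82.4%) were lower in the ectoderm and 3 higher, with a median of -2.12, and 28 and 1 without ectoderm replicate 3. Ebf1, a helix-loop-helix factor, read 4.76, 5.11 and 4.61 on the ectoderm arrays and 9.15, 9.14 and 9.34 on the mesenchyme arrays. It was detected on 1 of 3 ectoderm arrays and was 20.9-fold lower there (log2 difference -4.38 ± 0.28, adjusted p = 1.1e-15). Ebf2 and Ebf3 differed by -3.54 ± 0.17 and -3.12 ± 0.26. Prrx1, a homeobox gene of limb and face mesenchyme, read 7.16, 7.34 and 8.37 on the ectoderm arrays and 10.48, 10.49 and 10.37 on the mesenchyme arrays. Ectoderm replicate 3 was the highest of its group and still below every mesenchyme array (log2 difference -2.82 ± 0.40, adjusted p = 2.55e-07). Twist1, a factor of the neural crest, differed by -2.41 ± 0.34, the collagen receptor Ddr2 by -3.07 ± 0.28 and N-cadherin (Cdh2) by -2.92 ± 0.17. Zeb1, Zeb2 and Snai1 were at -2.34 ± 0.30, -2.14 ± 0.26 and -1.71 ± 0.23, while Snai2 was at -0.12 ± 0.12 with no call. Meis2 was higher in the ectoderm at 1.70 ± 0.11. Tbx18 and Thy1 were the others called higher. Tbx18 was detected on 0 of the 6 arrays and its other probe set did not give the same call, and both calls were lost without ectoderm replicate 3 (adjusted p = 0.0802 and 0.252).

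Genes known to pattern the frontonasal mesenchyme were lower in the ectoderm in 10 of 16 and higher in 4, with and without ectoderm replicate 3. Alx1, which is required for the midface, read 8.34, 7.86 and 9.25 on the ectoderm arrays and 11.15, 11.03 and 11.06 on the mesenchyme arrays. Ectoderm replicate 3 was the nearest to the mesenchyme, with no overlap (log2 difference -2.60 ± 0.30, adjusted p = 4.08e-09). Nr2f1, Pax9, Six2, Alx4 and Gsc, all transcription factors, differed by -2.87 ± 0.26, -2.73 ± 0.18, -2.52 ± 0.15, -2.17 ± 0.23 and -2.10 ± 0.19. The 4 higher genes were the AP-2 factors Tfap2a, Tfap2b and Tfap2c at 1.77 ± 0.15, 1.35 ± 0.18 and 1.83 ± 0.12, and Msx2 at 1.43 ± 0.16. Msx1 was at 0.13 ± 0.15 with no call. Foxc1, a forkhead factor of cranial mesenchyme, read 4.90, 5.18 and 5.20 on the ectoderm arrays and 8.37, 8.16 and 8.44 on the mesenchyme arrays (log2 difference -3.23 ± 0.16, adjusted p = 1.07e-18).

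Matrix and skeletal genes were mostly lower in the ectoderm. Of 36 collagen and matrix genes 30 (83.3%) were lower and 4 higher, with a median of -1.59, and 28 and 4 without ectoderm replicate 3. Postn, a matrix protein of connective tissue, read 6.36, 6.36 and 5.83 on the ectoderm arrays and 9.83, 9.60 and 9.90 on the mesenchyme arrays, 12.1-fold lower (log2 difference -3.59 ± 0.26, adjusted p = 2.92e-14). Ogn, Lama4, Lox and Col1a2 differed by -3.30 ± 0.19, -3.09 ± 0.24, -2.92 ± 0.19 and -2.58 ± 0.28. The 4 higher in the ectoderm were Fmod (2.56 ± 0.14), Col18a1 of the basement membrane (1.44 ± 0.13), Dcn (1.10 ± 0.21) and Lamb1 (0.74 ± 0.07). Of 26 cartilage and bone genes 19 were lower and 1, Snorc, higher. Sox9, the master regulator of cartilage, read 6.95, 7.37 and 7.56 on the ectoderm arrays and 9.91, 9.95 and 9.88 on the mesenchyme arrays (log2 difference -2.62 ± 0.12, adjusted p = 1.35e-19). Col2a1, the main cartilage collagen, differed by -1.50 ± 0.12. Cnmd, an inhibitor of vessel growth made in cartilage, read 5.24, 5.25 and 5.54 on the ectoderm arrays and 7.79, 7.71 and 8.20 on the mesenchyme arrays. It was detected on 0 of 3 ectoderm arrays, and was at least 5.88-fold lower there (log2 difference -2.56 ± 0.15, adjusted p = 1.31e-16).

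Of 15 retinoic acid genes 9 (60%) were lower in the ectoderm, against 30.8% of all genes with a symbol, and 3 (20%) higher, against 27.2%, and 10 and 3 without ectoderm replicate 3. Aldh1a2, an enzyme that makes retinoic acid, read 5.32, 5.16 and 5.85 on the ectoderm arrays and 9.64, 9.44 and 9.71 on the mesenchyme arrays. It was 17.8-fold lower in the ectoderm with no overlap (log2 difference -4.15 ± 0.31, adjusted p = 1.1e-13). The receptor gene Rarb, itself induced by retinoic acid, read 6.22, 6.12 and 6.17 on the ectoderm arrays and 8.95, 8.99 and 8.89 on the mesenchyme arrays (log2 difference -2.77 ± 0.11, adjusted p = 4.51e-21). Stra6, which takes up retinol, differed by -2.54 ± 0.17, and the binding protein gene Crabp2 by -1.69 ± 0.14. Cyp26a1, which degrades retinoic acid, was higher in the ectoderm at 2.16 ± 0.21, whereas Cyp26b1 was lower at -1.20 ± 0.17.

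**Figure D3:**
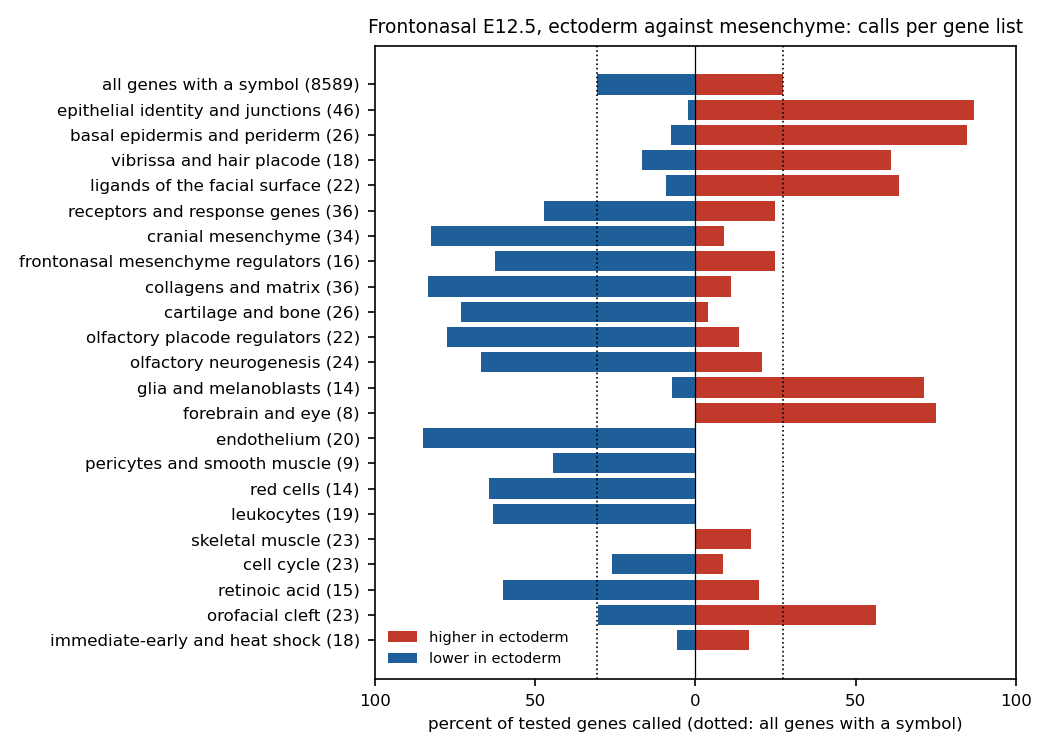
Percent of the tested genes of each list (number in brackets) called higher (red, right) or lower (blue, left) in the ectoderm, with dotted lines at the shares over all 8589 genes with a symbol (27.2% and 30.8%). Epithelial and epidermal lists reach 87% and 84.6% higher, and cranial mesenchyme, matrix and endothelium reach 82.4%, 83.3% and 85% lower.

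Olfactory genes were lower in the ectoderm than in the mesenchyme. Of 22 regulators of the olfactory placode, 17 (77.3%) were lower and 3 higher (Dlx3, Otx1 and Sox3), with a median of -1.28, and 16 and 2 without ectoderm replicate 3, where Sox3 lost its call (adjusted p = 0.245). Eya4, a transcriptional coactivator of placode and muscle development, differed by -3.65 ± 0.15. Lhx2, needed for olfactory neurons, read 6.51, 6.68 and 6.22 on the ectoderm arrays and 8.96, 9.32 and 9.68 on the mesenchyme arrays. The difference was 7.21-fold (log2 difference -2.85 ± 0.20, adjusted p = 1.32e-14). Sox2, a factor of neural and placode progenitors, read 6.82, 7.15 and 6.15 on the ectoderm arrays and 8.46, 8.51 and 8.73 on the mesenchyme arrays, with the lowest mesenchyme array above the highest ectoderm array (log2 difference -1.86 ± 0.26, adjusted p = 1.44e-07). Otx2 and Fezf1 differed by -2.26 ± 0.24 and -1.99 ± 0.18, Emx2 by -2.01 ± 0.20, and Aldh1a3, the retinoic acid enzyme of the nasal pit, by -2.43 ± 0.16. Dlx3 and Otx1 were at 1.99 ± 0.16 and 1.46 ± 0.16. Epithelial markers were also detected on the mesenchyme arrays, 46 of 46 on all 3, at a mean of 6.92 to 7.09 against 8.38 to 8.67 in the ectoderm. Their part in the olfactory result was not tested. Eya4 and Emx2 were also lower in the ectoderm of both jaw prominences at E12.5. In the maxillary ectoderm and mesenchyme Eya4 read 6.71 to 7.05 and 8.52 to 9.03, and Emx2 5.29 to 6.04 and 7.41 to 7.86. In the mandibular layers Eya4 read 7.53 to 7.84 and 9.25 to 9.45, and Emx2 4.87 to 5.20 and 6.51 to 6.89. Against the jaw, 12 of the 22 (54.5%) were more towards the mesenchyme and 1 more towards the ectoderm.

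Of 24 genes of olfactory neurogenesis, 16 were lower and 5 higher, and 17 and 4 without ectoderm replicate 3. The neuronal factors Nhlh1 and Neurod1 were detected on 3 of 3 mesenchyme arrays and on 0 of 3 ectoderm arrays. Neurod1 read 3.44, 3.45 and 3.57 on the ectoderm arrays and 5.92, 6.44 and 6.22 on the mesenchyme arrays, at least 6.53-fold lower (log2 difference -2.71 ± 0.24, adjusted p = 4.1e-12). Nhlh1 read 4.31, 4.36 and 4.47 on the ectoderm arrays and 7.08, 7.28 and 7.43 on the mesenchyme arrays, at least 7.38-fold lower (log2 difference -2.88 ± 0.26, adjusted p = 9.24e-12). The ectoderm values were alike on the 3 arrays, and no group overlapped. The neuronal cytoskeleton genes Stmn2 and Tubb3 differed by -3.08 ± 0.38 and -2.40 ± 0.21, the RNA-binding gene Elavl4 by -3.04 ± 0.23, and Ncam1 by -2.37 ± 0.13. The higher genes were Isl1 (0.99 ± 0.16), Cntn2 (0.86 ± 0.15), Dll1 (0.75 ± 0.19), Hes5 (0.50 ± 0.16) and Olfm1 (0.35 ± 0.09), and the call of Hes5 was lost without ectoderm replicate 3 (adjusted p = 0.159). Stmn2 and Ncam1 were also lower in the ectoderm of both jaw prominences at E12.5. In the maxillary ectoderm and mesenchyme Stmn2 read 5.70 to 6.76 and 8.90 to 9.14, and Ncam1 7.08 to 7.82 and 9.39 to 9.48. In the mandibular layers Stmn2 read 4.81 to 5.91 and 7.93 to 8.11, and Ncam1 7.50 to 7.71 and 9.37 to 9.60. Against the jaw, 14 of the 24 (58.3%) were more towards the mesenchyme and 1 more towards the ectoderm.

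The gene with the largest excess in the mesenchyme was Sult1e1, the estrogen sulfotransferase. It read 2.77, 2.65 and 2.95 on the ectoderm arrays and 7.48, 7.62 and 7.83 on the mesenchyme arrays, and was detected on 0 of 3 ectoderm arrays. The difference was at least 28.9-fold (log2 difference -4.85 ± 0.16, adjusted p = 3.63e-23). Fstl5, a secreted follistatin-like protein gene, read 3.31, 3.39 and 3.61 on the ectoderm arrays and 7.25, 7.24 and 7.70 on the mesenchyme arrays (log2 difference -3.96 ± 0.16, adjusted p = 2.41e-20). Aspn, a small matrix proteoglycan gene, and Gpm6a, a neuronal membrane glycoprotein gene, differed by -3.69 ± 0.20 and -3.33 ± 0.19. For Aspn, mesenchyme replicate 2 read 6.80 against 7.63 and 7.72 for the others, above the ectoderm range of 3.57 to 3.79.

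Whether the layer difference was particular to E12.5 was tested against the same difference at E11.5, which uses the same 6 arrays again. The layer difference was higher at E12.5, that is more towards the ectoderm, for 284 probe sets (1.96%) and more towards the mesenchyme for 1209 (8.35%). Without ectoderm replicate 3 the counts were 460 and 1296. Of the 1209, 496 lay above 0 at E11.5 and below 0 at E12.5, 573 were below 0 at both ages, and 140 above 0 at both. Among all gene symbols 11.6% moved towards the mesenchyme and 2.82% towards the ectoderm.

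Olfactory genes were frequent in that direction, with 16 of 22 placode regulators and 15 of 24 neurogenesis genes more towards the mesenchyme at E12.5, and 0 more towards the ectoderm in either list. The counts were again 16 and 15 without ectoderm replicate 3. Sult1e1 read 6.91, 5.74 and 6.22 in the E11.5 ectoderm and 6.02, 6.26 and 6.40 in the E11.5 mesenchyme, so the layers overlapped at E11.5. Its layer difference of 0.06 at E11.5 became -4.85 at E12.5 (change -4.92 ± 0.22, adjusted p = 2.66e-18). Lhx2 read 8.98, 8.59 and 8.23 in the ectoderm and 8.47, 8.51 and 8.86 in the mesenchyme at E11.5, also overlapping, and its difference changed by -2.84 ± 0.28, adjusted p = 1.75e-09. Sox2 read 9.59, 8.79 and 9.10 in the E11.5 ectoderm and 8.42, 8.67 and 8.37 in the E11.5 mesenchyme, with every ectoderm array above, and its difference changed from 0.67 to -1.86 (change -2.53 ± 0.36, adjusted p = 2.69e-06). Its mesenchyme was at 8.49 ± 0.16 (SD, n = 3) at E11.5 and 8.57 ± 0.14 at E12.5, and its ectoderm at 9.16 ± 0.40 and 6.71 ± 0.51. Otx2, Fezf1 and Aldh1a3 changed by -2.78 ± 0.34, adjusted p = 1.75e-07, by -2.84 ± 0.26, adjusted p = 2.89e-10, and by -3.14 ± 0.22, adjusted p = 7.07e-13. Neurod1 averaged 6.07 ± 0.48 in the E11.5 ectoderm, where 3 of 3 arrays detected it, against 0 of 3 at E12.5 (change -2.66 ± 0.33, adjusted p = 2.12e-07).

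Beyond olfactory genes, Aspn, Ebf2, Gpm6a, Fstl5 and Maob, the gene of monoamine oxidase B, were the others with the largest changes towards the mesenchyme. Maob read 5.56, 5.37 and 5.57 on the ectoderm arrays and 8.61, 8.71 and 8.95 on the mesenchyme arrays at E12.5, while at E11.5 the layers averaged 8.77 ± 0.34 and 8.69 ± 0.21 (SD, n = 3). The change was -3.34 ± 0.35, adjusted p = 4.92e-09. Krt8 and Krt18 had layer differences of 1.53 and 1.48 at E11.5 and changed by -2.57 ± 0.16, adjusted p = 8.55e-14, and by -2.31 ± 0.26, adjusted p = 2.22e-08. Layer differences were more towards the mesenchyme at E12.5 in 14 of 26 cartilage and bone genes, in 12 of 36 collagen and matrix genes and in 8 of 15 retinoic acid genes. Among the 46 epithelial genes 7 moved towards the mesenchyme and 3 towards the ectoderm, or 5 and 6 without ectoderm replicate 3.

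Pigment genes moved the other way, with 5 of 14 glia and melanoblast genes more towards the ectoderm at E12.5 than at E11.5 and 1 more towards the mesenchyme, or 5 and 0 without ectoderm replicate 3. Dct read 8.46, 8.28 and 7.87 on the ectoderm arrays and 4.67, 4.56 and 4.39 on the mesenchyme arrays, 12.7-fold higher in the ectoderm (log2 difference 3.66 ± 0.17, adjusted p = 3.69e-19). At E11.5 its ectoderm read 4.70, 5.21 and 4.60, and in the maxillary and mandibular ectoderm at E12.5 it lay between 4.55 and 5.37. The E12.5 frontonasal ectoderm was above all of these arrays, and the difference exceeded that at E11.5 by 3.39 ± 0.24, adjusted p = 6.16e-13, and that of the jaw by 3.30 ± 0.21, adjusted p = 1.55e-14. Pmel, a matrix protein of the pigment granule, read 8.27, 8.18 and 7.65 on the ectoderm arrays and 5.65, 5.45 and 5.63 on the mesenchyme arrays (change from E11.5 2.50 ± 0.20, adjusted p = 1.36e-11). Mitf, the main regulator of pigment cells, read 6.87, 6.71 and 6.81 on the ectoderm arrays and 5.33, 5.31 and 5.37 on the mesenchyme arrays (change 1.89 ± 0.17, adjusted p = 8.93e-11). Slc45a2, a transporter of the pigment granule, changed by 1.89 ± 0.20, adjusted p = 4.3e-09. Of the 14 genes of glia and melanoblasts, the migrating precursors of pigment cells, 10 were higher in the ectoderm and 1, Fabp7, lower, and 8 and 2 without ectoderm replicate 3. Sox10, shared with glia, was at -0.34 ± 0.15 with no call, and it passed at -0.53 (adjusted p = 0.00661) without ectoderm replicate 3. Kit and Ednrb were higher at 0.68 ± 0.10 and 0.98 ± 0.16. The excess of Kit was not particular to this age and site. Its ectoderm and mesenchyme read 8.75 to 9.12 and 8.21 to 8.28 at E11.5, and 8.06 to 8.49 and 7.24 to 7.69 in the jaw prominences. Of 8 tested forebrain and eye genes 6 were higher, by at most 0.66 (Prox1), and 1 without ectoderm replicate 3. None of the 8 is a pigment gene, so they do not measure pigmented tissue of the eye. The list holds 16 genes, and 4 of the 8 tested were detected on 0 of 3 ectoderm arrays. The part of these genes in the pigment result was not tested. Adcy8, an adenylyl cyclase gene, and Jakmip2 were also more towards the ectoderm than at E11.5, by 2.09 ± 0.20, adjusted p = 1.13e-09, and by 2.42 ± 0.27, adjusted p = 2.22e-08.

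**Figure D4:**
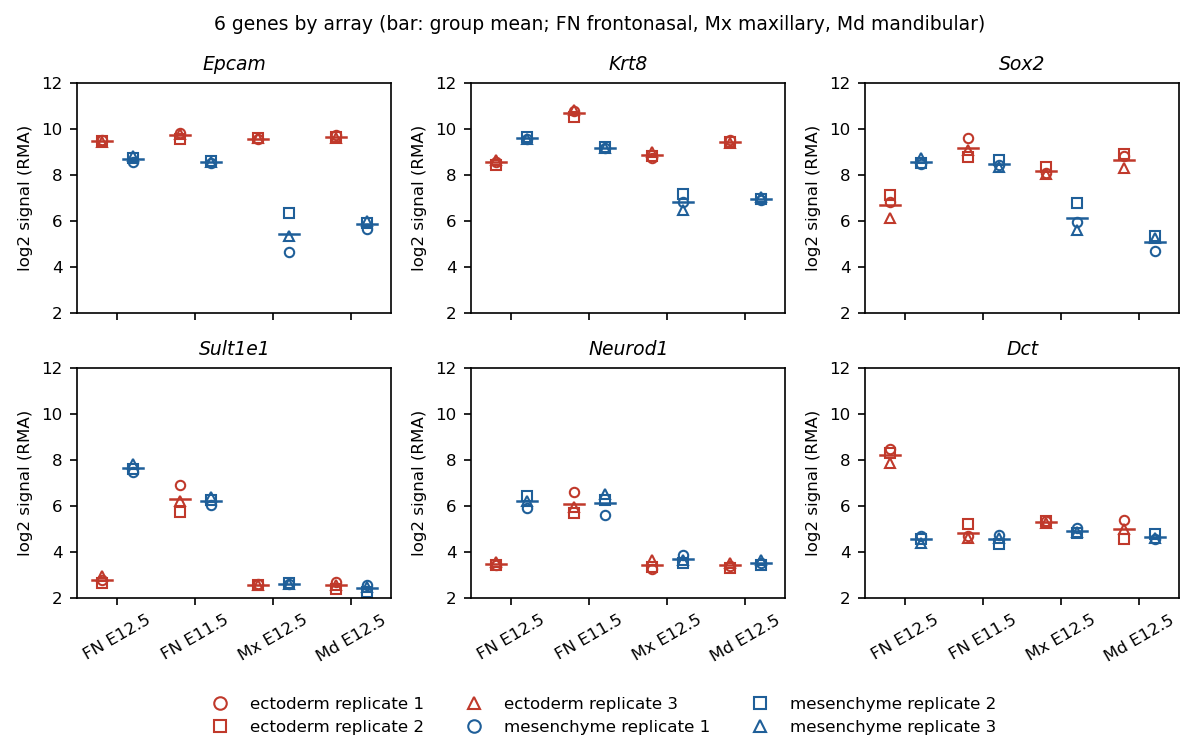
Log2 signal (y axis) by array of 6 genes in the ectoderm (red) and mesenchyme (blue) of the frontonasal process (FN) at E12.5 and E11.5 and of the maxillary (Mx) and mandibular (Md) prominences at E12.5, with a bar at each group mean. Epcam and Krt8 are between 8.53 and 9.66 in the frontonasal mesenchyme and 4.67 to 7.20 in the jaw mesenchyme, Sult1e1 and Neurod1 are low in the E12.5 frontonasal ectoderm and in all 4 jaw groups, and Dct reaches 8.46 there, against at most 5.37 in the other 7 groups.

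Whether the layer difference was particular to the frontonasal process was tested against the mean difference in the maxillary and mandibular prominences at E12.5, again with the same 6 arrays. It was above the jaw for 907 probe sets (6.27%) and below it for 1460 (10.1%). Without ectoderm replicate 3 the counts were 602 and 1127. Of the 1460, 615 had both differences above 0, 428 both below 0, and 417 were below 0 in the frontonasal process and above 0 in the jaw. Per gene symbol 8.32% were above and 13% below.

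Epithelial genes differed less between the frontonasal layers than between the jaw layers. Of the 46 genes, 34 (73.9%) were below the jaw and 0 above, with a median of -1.16, and 31 and 0 without ectoderm replicate 3. Epcam, an adhesion molecule of most epithelia, read 9.51, 9.50 and 9.42 in the frontonasal ectoderm and 8.55, 8.75 and 8.81 in the mesenchyme. In the jaw the ectoderm lay between 9.56 and 9.74 and the mesenchyme between 4.67 and 6.35. The ectoderm arrays lay within 9.42 to 9.74 in all 3 prominences, and the frontonasal mesenchyme was the group that stood apart. The frontonasal difference was 0.77 ± 0.28 and the jaw difference 3.96 (difference -3.19 ± 0.34, adjusted p = 6.37e-09). The frontonasal difference alone gave an adjusted p of 0.022, and 0.0774 without mesenchyme replicate 1. Esrp1, a splicing regulator of epithelia, averaged 8.95 ± 0.12 (SD, n = 3) in the frontonasal mesenchyme, against 6.09 ± 0.71 in the maxillary and 6.25 ± 0.27 in the mandibular mesenchyme (difference -3.05 ± 0.40, adjusted p = 4.68e-07). Krt8 and Krt18 were lower in the frontonasal ectoderm, while their layer differences in the jaw were 2.25 and 2.64, and the differences between the sites were -3.29 ± 0.14, adjusted p = 2.79e-19, and -3.47 ± 0.22, adjusted p = 2.24e-14. Of the epidermal genes 17 of 26 were below the jaw.

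The tissue labelled frontonasal mesenchyme carried more epithelial signal than the other mesenchymes by the mean of the list. The 46 genes averaged 6.92 to 7.09 there, 6.52 to 6.65 in the E11.5 frontonasal mesenchyme, 5.60 to 6.01 in the maxillary and 5.88 to 6.01 in the mandibular mesenchyme. All 46 were detected on 3 of 3 frontonasal mesenchyme arrays, 42 on 3 of 3 maxillary and 41 on 3 of 3 mandibular ones. The cranial mesenchyme list averaged 8.76 to 8.79 in the frontonasal mesenchyme and 6.82 to 7.24 in its ectoderm. The olfactory placode list averaged 7.78 to 7.89 in the frontonasal mesenchyme and 6.56 to 6.64 in its ectoderm, against 7.77 to 7.80 in the E11.5 frontonasal mesenchyme, 6.61 to 6.72 in the maxillary and 6.64 to 6.71 in the mandibular mesenchyme. The part of these markers in the olfactory and keratin values was not tested.

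Among single genes the largest differences from the jaw towards the mesenchyme included Sox2, Lhx2, Fstl5 and Slc27a2. Sox2 had a layer difference of 2.81 in the jaw, and the difference was -4.67 ± 0.31, adjusted p = 7.89e-14. Slc27a2, a fatty acid transporter gene, read 4.89, 4.33 and 4.63 on the ectoderm arrays and 7.45, 7.85 and 8.06 on the mesenchyme arrays, and its jaw groups averaged between 4.46 and 4.78 (difference -3.33 ± 0.23, adjusted p = 1.16e-13). Sult1e1 was detected on 0 of the 12 jaw arrays (difference -4.88 ± 0.19, adjusted p = 2.76e-20). Otx2, Foxc1 and Tfap2b differed from the jaw by -2.37 ± 0.30, adjusted p = 1.56e-07, by -3.25 ± 0.19, adjusted p = 4.39e-15, and by -2.43 ± 0.22, adjusted p = 1.99e-10. For Foxc1 the jaw difference was 0.02, and for Tfap2b it was 3.77. Of 34 cranial mesenchyme genes 3 were above the jaw and 5 below, and Alx1 was at -2.60 and -2.80 in the frontonasal process and the jaw, with no call on the difference.

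Skeletal muscle genes were above the jaw in 22 of 23, with and without ectoderm replicate 3, with a median of 1.64. Actc1, a muscle actin, read 6.51, 6.72 and 6.84 on the ectoderm arrays and 6.12, 6.71 and 6.72 on the mesenchyme arrays, with overlapping layers, and 10.37 ± 0.42 and 12.53 ± 0.08 (SD, n = 3) in the maxillary and mandibular mesenchyme (difference 3.75 ± 0.43, adjusted p = 2.91e-08). Myh3, the embryonic myosin, was at 0.10 ± 0.16 in the frontonasal process and -2.61 in the jaw (difference 2.71 ± 0.20, adjusted p = 5.29e-13). Dlx1, a homeobox gene, read 8.03, 8.12 and 7.78 on the ectoderm arrays and 5.71, 5.84 and 5.31 on the mesenchyme arrays, and averaged 8.33 ± 0.17 and 8.22 ± 0.06 in the jaw mesenchyme (difference 2.79 ± 0.18, adjusted p = 1.51e-14). Gria2, a glutamate receptor gene, and Ednrb differed from the jaw by 2.40 ± 0.23, adjusted p = 5.54e-10, and by 2.38 ± 0.19, adjusted p = 1.19e-11. Their jaw differences were -0.23 and -1.40.

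**Figure D5:**
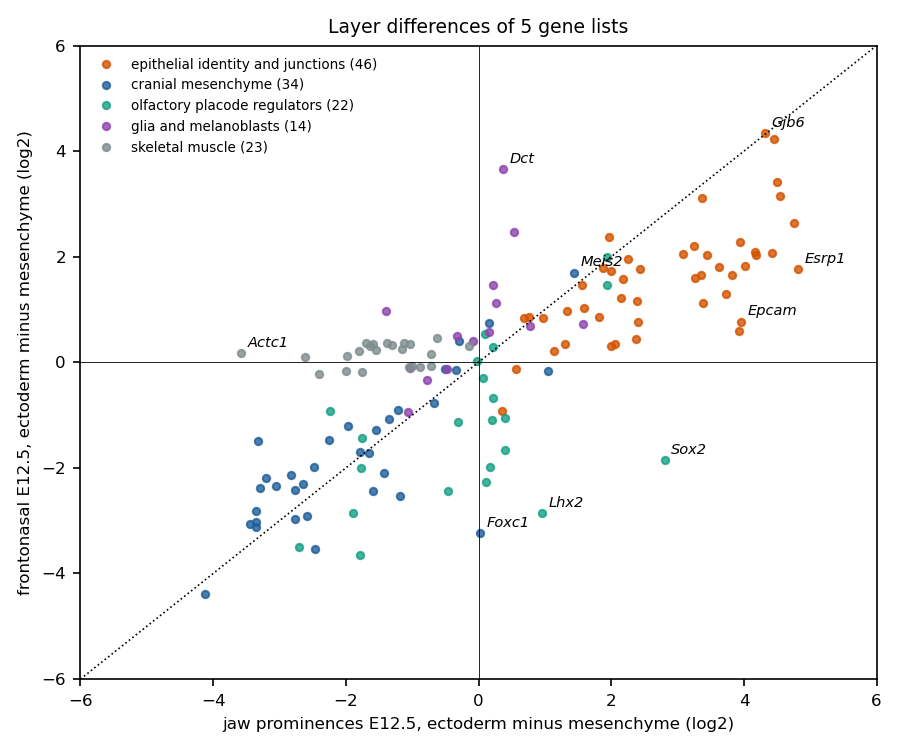
Ectoderm minus mesenchyme at E12.5 in the jaw prominences (x axis, log2, mean of maxillary and mandibular) against the frontonasal process (y axis, log2), 1 point per gene of 5 lists, with a dotted line where both are equal. Most epithelial genes (34 of 46 called) lie below the line, skeletal muscle genes (22 of 23 called) lie above it, and Sox2 and Lhx2 have opposite signs on the axes. For Lhx2 the maxillary layers were separate (ectoderm 7.92 to 8.46, mesenchyme 5.69 to 6.17), while the mandibular layers overlapped (5.66 to 6.25 and 5.98 to 6.26).

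Other cell types of the tissue were compared with their own lists. Endothelial genes were lower in the ectoderm in 17 of 20 and higher in 0 (19 and 0 without ectoderm replicate 3), and averaged 5.62 to 6.12 on the ectoderm arrays and 7.39 to 7.54 on the mesenchyme arrays. Emcn, a surface protein of venous and capillary endothelium, read 4.81, 4.41 and 4.78 on the ectoderm arrays and 8.15, 7.99 and 8.24 on the mesenchyme arrays (log2 difference -3.46 ± 0.29, adjusted p = 1.97e-12), and VE-cadherin (Cdh5) differed by -3.21 ± 0.24. Red cell genes were lower in 9 of 14, leukocyte genes in 12 of 19 and pericyte genes in 4 of 9, with 0 higher in each, or in 12, 14 and 4 without ectoderm replicate 3. The embryonic globin gene Hbb-bh1 differed by -2.69 ± 0.39 and the leukocyte actin-bundling gene Lcp1 by -1.82 ± 0.15. Skeletal muscle genes were higher in 4 of 23, or 1 without ectoderm replicate 3, with a largest difference of 0.46 (Mylpf). Cell cycle genes made few calls, 2 of 23 higher and 6 lower, or 2 and 3 without ectoderm replicate 3. Ccnd2, a D-type cyclin, and the cell cycle inhibitor Cdkn1a were higher in the ectoderm at 1.04 ± 0.07 and 1.05 ± 0.14, and Ccnd1 was lower at -0.79 ± 0.10.

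Genes linked to orofacial clefts were compared with the same background. Of 23, 13 (56.5%) were higher, against 27.2% of all genes with a symbol, and 7 (30.4%) lower, against 30.8%, or 12 and 8 without ectoderm replicate 3, with a median of 1.19. The higher genes include Trp63, Grhl3 and Wnt9b, at 2.88, 2.28 and 2.52, and Ripk4, a kinase of epidermal differentiation, at 1.93 ± 0.17. The lower genes include Tbx22, a T-box factor of the palate, which read 4.32, 4.41 and 4.73 on the ectoderm arrays and 6.97, 6.90 and 6.87 on the mesenchyme arrays (log2 difference -2.43 ± 0.22, adjusted p = 1.59e-11), and Tgfb3 at -1.91 ± 0.10.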

How the data were processed

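RNA of 45 pools of mouse facial tissue was hybridised to Affymetrix Mouse Gene 1.0 ST arrays, 3 in each of 15 groups. The deposited log2 values were summarised with RMA in Affymetrix Power Tools 1.91, per the submitters' processing notes, for 28944 probe sets. The authors deposited a detection p-value for each probe set and array, made with version 1.8.0 of the same tools per the file headers. They also deposited q-values of a three-way ANOVA for 9626 probe sets, whose table supplied the symbols. Symbols were updated through RefSeq (852 through a synonym, 8452 unchanged, 93 kept as given, 229 probe sets with none). The build in the submitters' notes is mm9, and promoters came from RefSeq's GRCm38.p6 table, so no coordinates were set against the arrays.

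Probe sets whose variance over all arrays exceeded the median of 0.0414 were kept, and these 14472 were fitted with limma 3.58.1 in R 4.3.3. The model held a mean for each of the 15 groups over the 45 arrays, with eBayes moderation and Benjamini-Hochberg adjustment over all tested, 2-sided, at a threshold of 0.05. The contrasts were the layer difference at E12.5, that difference minus the one at E11.5, and minus the mean of both jaw prominences. These 3 contrasts share the same 6 arrays. In the authors' deposited table, 4959 of 5404 probe sets called here and listed there had a layer q-value under 0.05. The same share over all 9395 tested probe sets listed there was not counted. That q-value comes from the same series and covers all ages and prominences, so it is no independent check of these calls. The replicates are labelled as separate samples, and p-values measure the spread between these pools, which may be partly technical.

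A probe set counted as detected at a detection p-value under 0.05. Where 0 of 3 arrays of the lower layer detected it, the fold is given as a minimum. The probe set with the highest mean stood for a symbol with several (399 symbols). Named were the 12 largest differences in each direction for the layer difference, the 6 largest in each direction for the others, up to 8 members per list, and genes with a defining role. A few genes that met this rule are counted but not reported here by name. The members, the 22 gene lists, the motifs and the genes printed were chosen with earlier results of these data known. The procedure was tested on simulated data. Alternatives covered the filter, moderation, scaling, samples in the fit, array weights, a replicate block and leaving out each array.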

Additional observations from a re-analysis of the deposited data

Results flagged for a closer look

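The results here are genes whose ectoderm minus mesenchyme difference in the frontonasal process at E12.5 differed from the same difference at another age or site by the test of that difference. All share the 6 frontonasal E12.5 arrays, and no explanation was tested. They are the genes with the largest such differences and others that the text describes.

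Against E11.5, 284 probe sets were called more towards the ectoderm, and pigment genes made 4 of the 6 named genes with the largest gains. The log2 changes were 3.39 for Dct, 2.50 for Pmel, 2.42 for Jakmip2, 2.09 for Adcy8, 1.89 for Mitf and 1.89 for Slc45a2. Towards the mesenchyme, the log2 changes were -4.92 for Sult1e1, -3.61 for Aspn, -3.60 for Ebf2, -3.50 for Gpm6a, -3.46 for Fstl5, -3.34 for Maob, -2.57 for Krt8, -2.31 for Krt18, -2.78 for Otx2, -2.84 for Fezf1, -2.84 for Lhx2, -2.53 for Sox2, -2.66 for Neurod1 and -3.14 for Aldh1a3. Sult1e1 and Neurod1 were detected on 0 of 3 ectoderm arrays at E12.5, so the size of their changes is a minimum. The genes include Sox2, Otx2, Lhx2 and Fezf1, regulators of the olfactory placode, and the keratins Krt8 and Krt18. The largest limma adjusted p among the 20 genes was 2.69e-06, for Sox2.

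Against the mean of the maxillary and mandibular prominences, the log2 differences towards the ectoderm were 3.75 for Actc1, 3.30 for Dct, 2.79 for Dlx1, 2.71 for Myh3, 2.40 for Gria2 and 2.38 for Ednrb. Muscle genes Actc1 and Myh3 were at their highest in the jaw mesenchyme. Towards the mesenchyme, the log2 differences were -4.88 for Sult1e1, -4.67 for Sox2, -3.83 for Fstl5, -3.81 for Lhx2, -3.47 for Krt18, -3.33 for Slc27a2, -3.19 for Epcam, -3.05 for Esrp1, -3.29 for Krt8, -2.37 for Otx2, -3.25 for Foxc1 and -2.43 for Tfap2b. Sult1e1 was detected on 0 of 3 frontonasal ectoderm arrays and 0 of the 12 jaw arrays, so its layer difference is a minimum in the frontonasal process and was not measured in the jaw. Otx2 was detected on 0 of 3 arrays of each mandibular layer. Among the genes Epcam, Esrp1, Krt8 and Krt18 are epithelial genes, and all 4 had frontonasal mesenchyme levels above those of the jaw mesenchyme. The largest limma adjusted p among these 18 genes was 4.68e-07, for Esrp1.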

How the results depend on the processing

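Counts of calls stayed within 1.5 times the reported count in 184 of 192 comparisons with an alternative. When only the groups compared entered the fit, 1624 probe sets were higher and 2217 lower in the ectoderm, and 120 and 739 moved towards the ectoderm and the mesenchyme against E11.5. Fewer samples then estimated the spread, whereas the reported fit shares 1 spread per probe set over all 15 groups. The median replicate SD was 0.258 in the frontonasal ectoderm and 0.118 in the mesenchyme. The shared spread may therefore understate that of the ectoderm, and adjusted p-values of the reported fit may be too small. Why the counts fell was not tested. The count towards the ectoderm against E11.5 was 456 after a further quantile normalization and 737 with array weights, which gave ectoderm replicate 3 a weight of 0.09, and the cause was not tested. Leaving out 1 array at a time gave 2742 to 3770 probe sets higher and 3015 to 3541 lower in the ectoderm. Against E11.5 it gave 224 to 460 towards the ectoderm and 1076 to 1296 towards the mesenchyme. Against the jaw it gave 602 to 1348 and 1127 to 1776. The 460 and the 602 came from leaving out ectoderm replicate 3.

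With the replicate block, 3409 probe sets were higher and 3345 lower in the ectoderm, 236 and 1106 against E11.5, and 782 and 1314 against the jaw, each within 1.5 times the reported count. Ectoderm and mesenchyme arrays of the same number did not deviate together in all pairs (residual correlations 0.31, -0.42 and -0.26). Taken around means of 3 arrays, these values cannot decide whether arrays of the same number came from the same pool. The labels do not state it either. Replicate 1 alone correlated best with its own number.

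Of 178 genes that the rules selected, 154 kept direction and side of the threshold for the layer difference in every alternative that tested them (16 at most), as did the 20 genes followed for the contrast with E11.5 and the 18 for that with the jaw. Near 0 and with no call, the sign turned for 8 genes. Leaving out 1 array gave -0.02 to 0.28 for Actc1, -0.17 to 0.13 for Eda, -0.08 to 0.12 for Fgf17, -0.14 to 0.17 for Gli1, -0.05 to 0.27 for Msx1, -0.03 to 0.28 for Ptch1 and -0.23 to 0.09 for Snai2. Array weights gave 0.11 for Eda, 0.19 for Gli1 and 0.08 for Snai2, and quantile normalization 0.07 for Gli1 and -0.03 for Myh3. Calls were lost in at least 1 alternative for 9 genes (Epcam, Fgf8, Hes5, Olfm1, Sox3, Sox21, Tbx18, Thy1 and Trps1). Calls were gained in at least 1 alternative for 8 genes (Cldn3, Etv5, Fgf18, Hspa1a, Lef1, Prss8, Ptch1 and Sox10). Fgf8 was lost in 10, the replicate block included (adjusted p = 0.0614). Counts over gene lists moved by more than 1.5 times in 145 of 2112 cases. With detection at p under 0.01, the probe sets called with 0 arrays of the lower layer detected rose from 445 to 1089, so minimum folds would replace folds for more of them.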
